A study of Mus musculus with 4 samples.

Results

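The core pluripotency factors Pou5f1, Nanog, Sox2, Sall4, Utf1, Tdgf1 and Fgf4 are 7 genes, chosen by symbol out of 13831 gene symbols in the deposited table of single RNA reads. All 7 genes had reads in every library, and together they had 5508 of 1903919 reads. The cells were J1 mouse embryonic stem cells grown in serum with LIF. One genotype was wild type (WT), and the other lacked the RNA helicase Mov10 (Mov10 KO, here KO). The 2 libraries per genotype are named WT 1 and WT 2 or KO 1 and KO 2, and no group had any other treatment. The labels do not say whether the libraries came from separate cultures, nor whether the knockout line was a single clone or which allele it carried, so the spread between 2 libraries of a genotype may be technical. The measurement was the length of the poly(A) tail of each molecule in nucleotides (nt), estimated from direct RNA nanopore reads of RNA selected on oligo(dT) beads.

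Pluripotent cells can form every tissue of the embryo, and a small network of transcription factors holds them in that state. Oct4 (the protein of Pou5f1) and Sox2 bind DNA side by side as partners, and with the homeodomain protein Nanog they activate one another's genes and many shared targets. Sall4 is a zinc finger factor of the same network, and Utf1 is a chromatin-bound protein that is a classical target of Oct4 and Sox2. Fgf4 and Tdgf1 are the secreted and surface arms: Fgf4 is the growth factor that primes stem cells to leave the undifferentiated state, and Tdgf1 (Cripto) is the co-receptor for Nodal. The poly(A) tail is added to the end of a messenger RNA in the nucleus and is shortened in the cytoplasm, and its length is tied to translation and decay.

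Promoter sequences are shown because Oct4 and Sox2, the proteins of 2 members, bind short DNA motifs that can be looked for beside the members' start sites. RefSeq's table for GRCm38.p6 held windows of 300 bases, from 250 before to 50 after the start, for 6 of the 7 members. Both strands were searched for the core of the POU octamer, ATGCAAA, and for a SOX core, CATTGT; the pair does not overlap in letters. The 6 members had 8 windows, as Nanog and Pou5f1 had more than 1 each. Their chance of a match per member is thus higher than per window. The Nanog windows overlap and hold the same matches, and the later one is printed. The octamer core was found in 2 of the 6 members, Nanog and Sox2, against 4.63% of all 32851 windows. The SOX core was found in Nanog and in 1 of the Pou5f1 windows, against 12.6% of all windows. Utf1, Fgf4, Tdgf1 and the other Pou5f1 window held neither. Nanog alone among the members held both, 1 base apart. Both cores, at any spacing, were held by 0.813% of all windows. The Nanog window (chr6:122707315-122707614, plus strand) and the Sox2 window (chr3:34649745-34650044, plus strand) are printed 5′ to 3′ with these matches in capitals. A match describes the letters only, and an absence holds only for these exact letters within these windows.
Nanog: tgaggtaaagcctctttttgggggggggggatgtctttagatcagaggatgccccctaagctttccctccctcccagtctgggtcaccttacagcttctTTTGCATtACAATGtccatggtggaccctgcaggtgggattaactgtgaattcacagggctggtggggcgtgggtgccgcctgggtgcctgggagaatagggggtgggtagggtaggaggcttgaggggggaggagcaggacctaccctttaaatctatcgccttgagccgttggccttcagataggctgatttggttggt
Sox2: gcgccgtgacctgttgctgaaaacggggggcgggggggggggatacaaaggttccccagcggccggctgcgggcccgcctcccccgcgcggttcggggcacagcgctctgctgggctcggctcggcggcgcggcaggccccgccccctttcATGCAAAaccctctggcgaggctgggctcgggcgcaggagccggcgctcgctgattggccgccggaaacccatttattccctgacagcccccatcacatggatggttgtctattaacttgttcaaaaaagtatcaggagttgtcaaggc

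The libraries held from 351133 to 683239 reads, and the 7 members took from 2653 to 3201 reads per 1000000 of them. The targeted gene, Mov10, had 26 and 14 reads in WT against 0 and 1 in KO. All 10 markers of naive stem cells had reads, with a summed level from 5525 to 7613 reads per 1000000. The markers of primed epiblast, germ layers, trophectoderm and fibroblast feeders were low. Primed epiblast markers (4 of 6 with a read) summed to between 37.0 and 45.5 reads per 1000000, those of primitive endoderm (3 of 7) to at most 5.70, mesoderm (4 of 5) 11.4, neural cells (2 of 5) 5.85, trophectoderm (2 of 6) 57.0 and fibroblast feeders (1 of 7) 14.0. Sox17, T, Sox1, Cdx2, Col1a1 and Col3a1 had no read. Over all genes, tails were longer in WT 2 and KO 1 than in WT 1 and KO 2: the median over the 1935 genes with at least 20 reads in every library was 109.4 and 110.0 nt in the former and 102.1 and 102.0 nt in the latter. This offset ran across the genotypes.

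Pou5f1 (ENSMUSG00000024406.16), which encodes Oct4, was the most deeply read member, with 46.6% of the members' reads. Its median tail was 112.9 nt in WT 1, 124.9 nt in WT 2, 118.7 nt in KO 1 and 120.6 nt in KO 2, on 677, 503, 855 and 531 reads. The libraries of the genotypes overlapped, and the shortest was WT 1. The 95% interval of the median, from the ranks of the reads, ran from 107.7 to 116.4 nt in WT 1 and from 119.3 to 129.2 nt in WT 2, so the WT replicates differed by more than read sampling. These intervals cover read sampling only.

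Sox2 (ENSMUSG00000074637.7), the DNA-binding partner of Oct4, had a median tail of 123.6 nt in WT 1, 120.9 nt in WT 2, 139.2 nt in KO 1 and 107.5 nt in KO 2. The highest and the lowest value were both in KO, 31.7 nt apart. These medians came from 201, 116, 233 and 85 reads. Nanog (ENSMUSG00000012396.12), the homeodomain factor, had 113.2, 122.0, 111.8 and 115.1 nt in the same order, on 120, 149, 188 and 110 reads. Its 4 libraries lay within a span of 10.2 nt, with WT 2 highest and KO 1 lowest.

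Sall4 (ENSMUSG00000027547.17), the zinc finger factor, had the longest tails in every library but KO 1, where Sox2 was longer. Its medians were 156.7 nt in WT 1, 143.2 nt in WT 2, 131.7 nt in KO 1 and 133.4 nt in KO 2. Both KO libraries lay below both WT libraries, but WT 1 held only 15 reads, with an interval from 117.9 to 192.2 nt, and the other libraries had 41, 87 and 42 reads. Utf1 (ENSMUSG00000047751.9), the chromatin-bound protein, had the shortest tails in every library but WT 2. It had 92.6 nt in WT 1, 117.7 nt in WT 2, 96.6 nt in KO 1 and 79.5 nt in KO 2, on 174, 88, 167 and 189 reads. WT 2 stood above the other libraries of Utf1, and KO 2 was lowest.

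Of the signalling members, Tdgf1 (ENSMUSG00000032494.12), the Nodal co-receptor, had medians of 101.0 nt in WT 1, 114.4 nt in WT 2, 109.3 nt in KO 1 and 87.4 nt in KO 2, on 186, 195, 253 and 160 reads. KO 2 was the low library, and its interval from 73.7 to 96.7 nt did not reach that of KO 1, from 102.9 to 116.5 nt. Fgf4 (ENSMUSG00000050917.5), the growth factor, had 111.8 nt in WT 1, 117.6 nt in WT 2, 102.2 nt in KO 1 and 98.0 nt in KO 2. Both KO libraries lay below both WT libraries. The gene had 31, 32, 56 and 24 reads, and the interval in WT 2 ran from 73.0 to 169.5 nt.

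**Figure D1:**
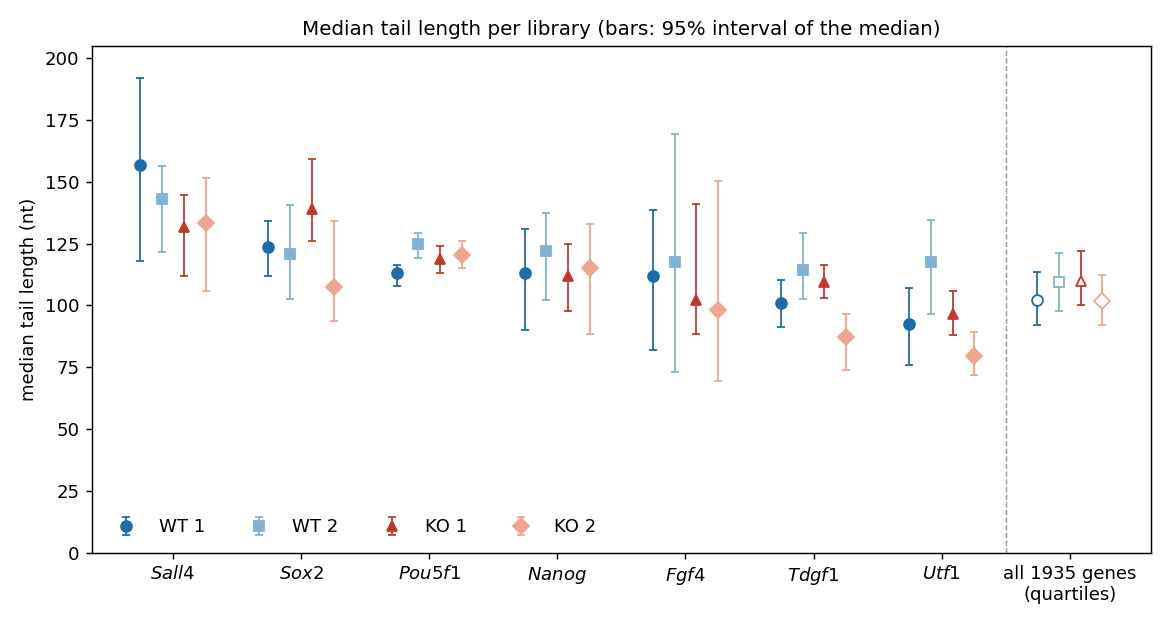
Median tail length in nt (vertical axis) of each gene in the 4 libraries, with bars for the 95% interval of the median over reads; the open symbols at the right give the median and quartiles over the gene medians of the 1935 genes with at least 20 reads in every library. Sall4 sits highest, with a mean of 141.3 nt over the libraries, and Utf1 lowest, with 96.6 nt, while the 4 libraries of a gene spread over up to 38.2 nt.

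Ordered by the mean of the 4 library medians, the members ran from Sall4 (141.3 nt) through Sox2 (122.8 nt), Pou5f1 (119.3 nt), Nanog (115.5 nt), Fgf4 (107.4 nt) and Tdgf1 (103.0 nt) to Utf1 (96.6 nt). Most neighbours in this order were not separated. Sox2 exceeded Pou5f1 by 3.51 nt ± 15.0 (SD, n = 4 libraries) and in only 2 of 4 libraries. Pou5f1 exceeded Nanog by 3.78 nt ± 3.14, Fgf4 exceeded Tdgf1 by 4.38 nt ± 8.41, and Tdgf1 exceeded Utf1 by 6.46 nt ± 6.84, each in 3 of 4 libraries. Nanog was longer than Fgf4 in 4 of 4 libraries, by 8.10 nt ± 6.86. That gap was 1.4 nt in WT 1, 4.4 nt in WT 2, 9.6 nt in KO 1 and 17.05 nt in KO 2. Sall4 was longer than Sox2 by 18.5 nt ± 17.9, in 3 of 4 libraries. Across the order the gaps were wider: Pou5f1 was longer than Utf1 by 22.7 nt ± 13.9 and longer than Tdgf1 by 16.3 nt ± 11.3, both in 4 of 4 libraries. An exact two-sided sign permutation test over 4 libraries cannot give a p under 0.13. The 21 pairs of members were compared in median, quartile range and shares of short and of long tails, in 84 comparisons. The smallest Benjamini-Hochberg adjusted p of this permutation test was 0.191. The same sign in all 4 libraries was common, in 55 of the 84 comparisons.

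Among the 1935 genes tested, the 3 factors of the triad sat in the upper part of the range of median tails. Pou5f1 lay at percentiles from 69.7 to 87.4, Sox2 from 64.1 to 93.3 and Nanog from 53.8 to 79.8 of the gene medians in a library. Sall4, ranked against the same genes although it had too few reads to be one of them, lay from 87.6 to 99.0. Utf1 ranged from 6.51 in KO 2 to 67.8 in WT 2, Tdgf1 from 15.9 to 61.1 and Fgf4 from 30.8 to 71.7. The triad and Sall4 were thus above the middle gene in all 4 libraries, and the other 3 members were on either side of it.

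The tail distributions also varied in shape. Pou5f1 had 1 broad peak: the bin from 90 to under 120 nt held 24.0% ± 1.35 of its reads (SD, n = 4) and the next one 21.2% ± 1.81. Nanog, with a median within 10 nt of that of Pou5f1 in every library, was flat from 30 to 150 nt, with 17.2% ± 1.91 of reads from 30 to under 60 nt and 17.01% ± 1.47 from 120 to under 150 nt. The range between the quartiles was 67.5 nt ± 2.201 in Pou5f1 and 94.2 nt ± 10.4 in Nanog, and the difference (Pou5f1 minus Nanog) was -26.6 nt ± 12.0, negative in 4 of 4 libraries. Sox2 (97.3 nt ± 11.6) and Fgf4 (98.1 nt ± 9.66) had similar mean widths to Nanog, and both exceeded Pou5f1 in 4 of 4 libraries. Tdgf1 (72.3 nt ± 4.70), Utf1 (76.8 nt ± 8.97) and Sall4 (66.7 nt ± 11.1) were narrower.

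Relative to all tested genes, measured as the ratio of the upper to the lower quartile, Pou5f1 was narrow, at percentiles from 11.4 to 22.5 in the 4 libraries, and Nanog was wide, from 59.6 in WT 1 to 90.1 in KO 1. Fgf4 lay from 63.1 to 94.4 and Sox2 from 55.3 to 87.8. Sall4 lay from 1.65 to 17.4, narrower than Pou5f1 in every library but KO 1, with only 15 reads in WT 1. Utf1 ranged from 43.7 to 96.3, with its widest value in WT 1, and Tdgf1 from 32.2 to 65.4.

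**Figure D2:**
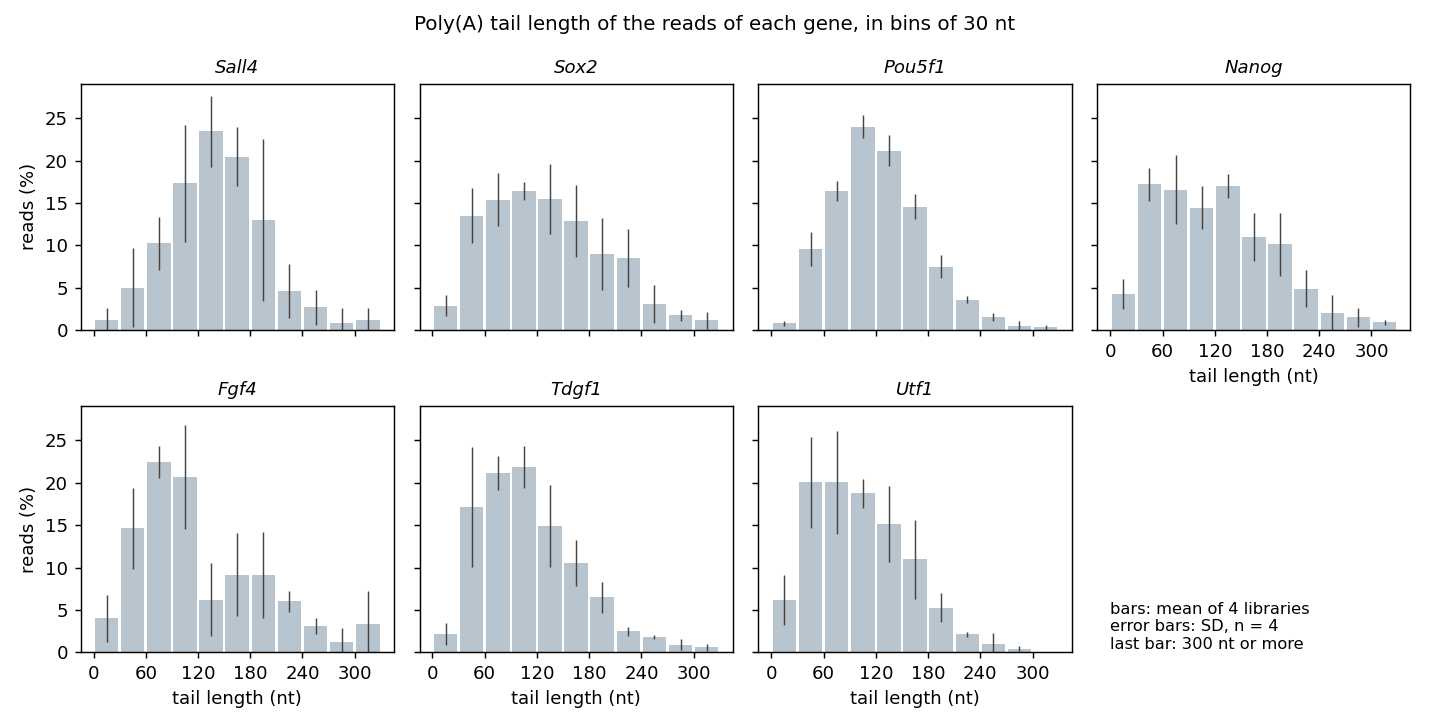
Share of each gene's reads (vertical axis, %) in bins of 30 nt of tail length (horizontal axis), with bars for the mean and error bars for the SD of the 4 libraries; the last bar holds all tails of 300 nt or more. Pou5f1 peaks from 90 to under 120 nt with 24.0% of reads, while Nanog holds between 14.4% and 17.2% in each of the 4 bins from 30 to under 150 nt.

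Tails under 60 nt made up 10.4% ± 2.15 (SD, n = 4) of Pou5f1 reads and 21.5% ± 1.75 of Nanog reads, a difference (Pou5f1 minus Nanog) of -11.04 percentage points with the same sign in 4 of 4 libraries (exact two-sided sign permutation p = 0.13, the smallest possible; adjusted p = 0.191). The share was 26.2% ± 7.33 in Utf1, 19.4% ± 8.28 in Tdgf1, 18.7% ± 4.34 in Fgf4, 16.4% ± 3.44 in Sox2 and 6.22% ± 4.84 in Sall4. Tails under 30 nt, about the length covered by a single poly(A)-binding protein, were found in 22 of the 2566 Pou5f1 reads. Their share was 0.827% ± 0.290 in Pou5f1, 2.19% ± 1.30 in Tdgf1 and 2.89% ± 1.24 in Sox2. It was 3.99% ± 2.82 in Fgf4, 4.28% ± 1.78 in Nanog and 6.12% ± 2.96 in Utf1. Over all reads of a library the share of tails under 30 nt was from 1.55% to 3.02%. Sall4 had no such read in WT 1 and KO 1, which at 15 and 87 reads allows shares of up to 20% and 3.45%.

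Tails of 150 nt or more made up 42.7% ± 7.87 of Sall4 reads, 36.4% ± 7.05 of Sox2, 32.0% ± 3.96 of Fgf4, 30.5% ± 3.70 of Nanog, 28.0% ± 2.99 of Pou5f1, 22.8% ± 4.82 of Tdgf1 and 19.8% ± 5.61 of Utf1 reads. Over all reads of a library the share was from 18.8% to 24.0%. Sox2 had its highest share in KO 1, 46.8% (95% Wilson interval 40.5 to 53.2%), against 32.9% in KO 2, 31.3% in WT 1 and 34.5% in WT 2. Tails of 200 nt or more made up 21.03% and 18.8% of Sox2 reads in KO and 10.4% and 13.8% in WT, so the genotypes did not overlap at this limit. Pou5f1 had 7.84% and 8.10% in KO and 7.39% and 7.75% in WT, which made 2 of the 6 members with at least 20 reads in every library, against 13.5% of the 1935 genes. The log2 odds of such a tail changed by 0.85 in Sox2 (SE 0.45) and 0.08 in Pou5f1 (SE 0.40), and neither passed (limma, adjusted p = 0.995 for both, over 1935 genes).

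The members showed the offset between libraries about as often as all genes did. Tails were longer in WT 2 than in WT 1 in 5 of the 6 members with at least 20 reads in every library (65.4% of the 1935 genes), and longer in KO 1 than in KO 2 in 4 of them (74.4% of genes). Utf1, Tdgf1 and Fgf4 showed both, as 48.3% of genes did. In Tdgf1 the gaps were 13.4 nt in WT and 21.9 nt in KO, and in Utf1 25.1 and 17.1 nt. Pou5f1 had 12.0 nt in WT but -1.88 nt in KO, and Sox2 had -2.68 nt in WT but 31.7 nt in KO.

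The first comparison between genotypes asked whether the tails of these messenger RNAs changed in length without Mov10. Pou5f1, Nanog and Sox2 had near-equal means in both genotypes, and the 3 other members tested had shorter means in KO, without any passing the test. Pou5f1 averaged 118.9 nt ± 8.49 (SD, n = 2) in WT and 119.6 nt ± 1.33 in KO. Nanog averaged 117.6 nt ± 6.25 and 113.4 nt ± 2.29, and Sox2 122.3 nt ± 1.90 and 123.3 nt ± 22.4. Utf1 had 105.1 nt ± 17.8 in WT and 88.0 nt ± 12.1 in KO. Tdgf1 had 107.7 nt ± 9.44 and 98.3 nt ± 15.5. Fgf4 had 114.7 nt ± 4.15 and 100.1 nt ± 2.98.

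On the log2 scale of the median tail length, limma gave a change of 0.01 for Pou5f1 (95% interval -0.21 to 0.23), -0.05 for Nanog (-0.33 to 0.23) and 0.00 for Sox2 (-0.28 to 0.28). It gave -0.25 for Utf1 (-0.53 to 0.02), -0.14 for Tdgf1 (-0.40 to 0.13) and -0.20 for Fgf4 (-0.61 to 0.22). The Benjamini-Hochberg adjusted p over the 1935 genes was 0.9998 for each of the 6 (limma). None of the 6 passed an adjusted p of 0.05, as did 0% of all genes. In this limma fit none had an unadjusted p under 0.05, against 2.33% of all genes (45 genes). For 4 of 6 the value was lower in KO, against 48.2% of genes, and the median change of the 6 was -0.09, against 0.01 over all genes. Fgf4 was the 1 tested member whose KO libraries both lay below its WT libraries, as did 11.8% of genes. The intervals of Nanog, Sox2, Tdgf1 and Fgf4 include the change seen in Utf1, so these data do not show that tails were equal. The fit above keeps the offset between libraries. With libraries centred on their median, Utf1 had -0.26 with an SE of 0.12, against an SE of 0.14 above. Its adjusted p was 0.994 (limma), and 86 of all genes had an unadjusted p under 0.05.

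Single libraries set several of these values. Without KO 2 the change of Tdgf1 was 0.02, and that of Sox2 was -0.19 without KO 1 and 0.19 without KO 2. Leaving out 1 library at a time gave Utf1 -0.43 (without WT 1) to -0.08 (without WT 2) and Fgf4 -0.23 to -0.16. Sall4 was not tested because of its 15 reads in WT 1; the mean of its WT libraries was 149.98 nt ± 9.54 (SD, n = 2) and that of its KO libraries 132.6 nt ± 1.24.

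The upper end and the width of the distributions were compared in the same way. The log2 odds of a tail of 150 nt or more changed by 0.42 in Sox2 (95% interval -0.43 to 1.27), -0.52 in Utf1 (-1.40 to 0.35) and -0.41 in Tdgf1 (-1.24 to 0.42), and by 0.16, -0.07 and -0.16 in Pou5f1, Nanog and Fgf4. The log2 ratio of the quartiles changed by 0.13 in Sox2 (-0.12 to 0.38), by -0.00171 in Pou5f1 (-0.16 to 0.16) and by between -0.09 and 0.07 in the other members. Without KO 1 the long-tail change was 0.0087 in Sox2, -0.98 in Utf1 and -0.77 in Tdgf1, and without KO 2 it was 0.84, -0.07 and -0.04. No member passed in either measure (limma, adjusted p of at least 0.985 for each member), and neither did any other gene (0% of 1935 in both). Unadjusted p-values under 0.05 numbered 0 among the members, against 3.31% of genes for long tails and 3.88% for the width.

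**Figure D3:**
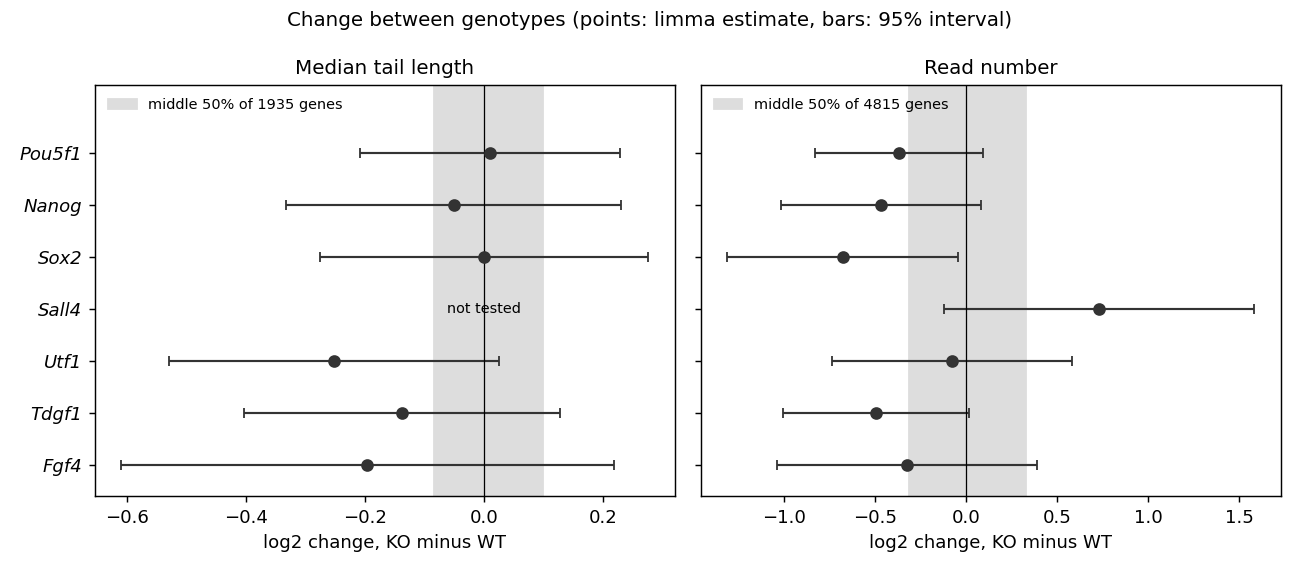
Change between genotypes (log2, KO minus WT, horizontal axes) in median tail length (left) and read number (right), with points for the limma estimate and bars for its 95% interval; the grey band holds the middle 50% of all genes tested. In tail length all 6 intervals include 0, and in read number that of Sox2 does not, although its adjusted p is 0.458.

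At the level of the deposited transcripts, Pou5f1, Sox2, Utf1 and Fgf4 each had a single transcript, Tdgf1 had 1 plus a lone read on a transcript that otherwise carried the symbol Ogdh, and Nanog and Sall4 had 3 each. Symbols and transcripts disagreed in few reads of the members: 1 read on the Pou5f1 transcript carried the symbol Cdk4, and 1 on a Nanog transcript Rpl5. Pou5f1 and Nanog have processed pseudogenes, and reads placed on those instead of the genes would be missed here. Of the Nanog reads, transcript ENSMUST00000012540.4 held 63.3% in WT 1, with a 95% Wilson interval of 54.4 to 71.4%, and 24.8% in WT 2 (18.6 to 32.3%). It held 34.0% (27.6 to 41.1%) in KO 1 and 35.5% (27.1 to 44.7%) in KO 2. WT 1 stood apart from the other 3 libraries, while KO 1 and KO 2 lay together.

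The mean share of ENSMUST00000012540.4 was 44.1% ± 27.2 (SD, n = 2) in WT and 34.7% ± 0.998 in KO. The difference of -9.33 percentage points was smaller than the replicate SD of 19.3, and it was 9.92 without WT 1 and -28.6 without WT 2. The share of ENSMUST00000112580.7 in WT 1 and WT 2 was 18.3% and 42.3%, and in KO 1 and KO 2 it was 36.2% and 30.9%. ENSMUST00000112581.7 had 18.3% and 32.9% in WT, and 29.8% and 33.6% in KO. Sall4 reads were spread over ENSMUST00000029061.11, ENSMUST00000075044.9 and ENSMUST00000103074.1, with mean shares from 30.4% to 37.1% in WT and from 31.1% to 36.9% in KO. The counting could split reads between such transcripts of 1 gene, so the shares describe the deposited assignment.

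**Figure D4:**
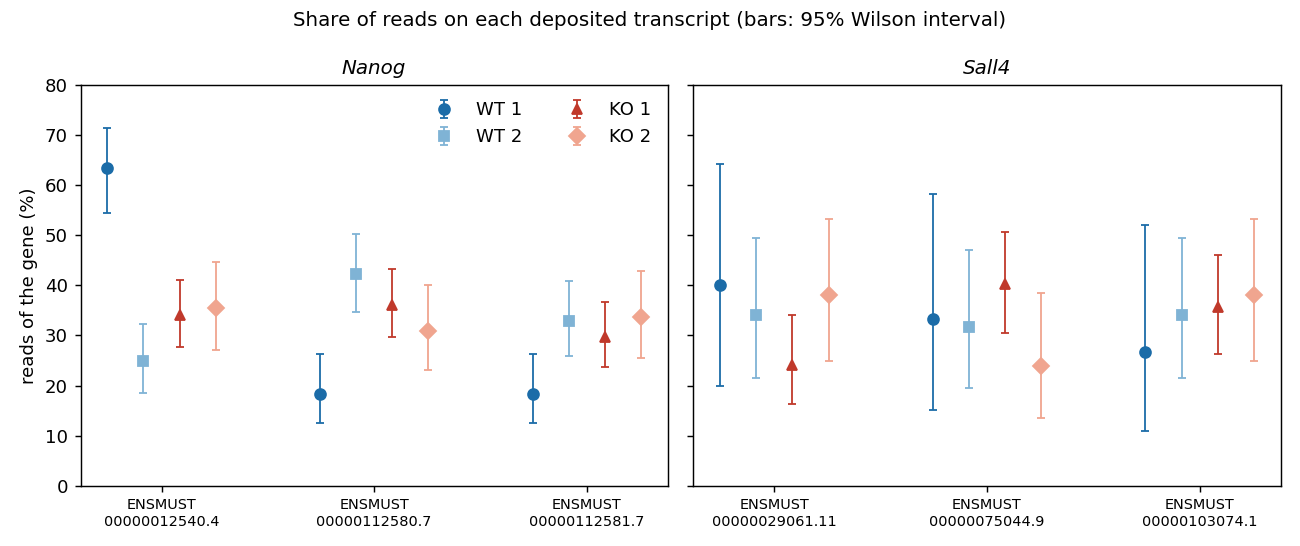
Share of the reads of Nanog (left) and Sall4 (right) on each deposited transcript (vertical axis, %) in the 4 libraries, with bars for the 95% Wilson interval. Nanog in WT 1 stands apart, with 63.3% of its reads on the first transcript against at most 35.5% in the other libraries.

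Tail length per transcript was tested for 1815 transcripts. On Nanog ENSMUST00000012540.4 the medians were 111.3, 111.0, 96.3 and 108.9 nt in WT 1, WT 2, KO 1 and KO 2, a log2 change of -0.11 (95% interval -0.47 to 0.24). On ENSMUST00000112580.7 they were 123.4, 125.2, 125.4 and 109.4 nt, and the change was -0.09. On ENSMUST00000112581.7 they were 121.7, 104.7, 117.2 and 122.5 nt, and the change was 0.09. None of the members' 8 tested transcripts passed (limma, adjusted p of at least 0.9990 for each), as did 0% of all transcripts, and 47 transcripts (2.59%) had an unadjusted p under 0.05.

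The genes with the most similar tail distributions were sought among those with at least 100 reads in every library, which 3 members reached. Likeness was the Wasserstein distance within a library, the mean shift in nt needed to turn one distribution into the other, averaged over the 4 libraries. Pou5f1 was nearest to Prdx1, a peroxidase, at 4.09 nt ± 1.72 (SD over 4 libraries), and to Ndufa7, a subunit of respiratory complex I, at 4.72 nt ± 0.984. The median distance of Pou5f1 to the 437 candidates was 15.8 nt. Nanog was nearest to Hat1, a histone acetyltransferase, at 6.32 nt ± 2.38, and to the mitochondrial chaperone Hspa9 at 8.01 nt ± 3.49, against a median of 17.4 nt. Tdgf1 was nearest to Rack1, a ribosomal scaffold protein, at 6.20 nt ± 2.36, and to the threonine dehydrogenase Tdh at 6.64 nt ± 3.58, against a median of 12.3 nt. Genes with fewer reads have larger distances from sampling alone.

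The second comparison asked whether the members' read numbers, a measure of RNA abundance, differed between genotypes. They are given per 1000000 reads of the library (RPM). In such bulk samples fewer cells that express a gene and less RNA per cell cannot be told apart. In the test 6 of the 7 members had fewer reads in KO and Sall4 had more, and none passed the test. Pou5f1 had 1540 RPM in WT 1 and 1433 in WT 2, against 1251 in KO 1 and 1235 in KO 2. Its genotypes did not overlap, with means of 1486 RPM ± 76.2 (SD, n = 2) in WT and 1243 RPM ± 11.7 in KO.

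Sox2 had 457.3 RPM in WT 1 and 330.4 in WT 2, against 341.0 in KO 1 and 197.7 in KO 2, and its genotypes overlapped between WT 2 and KO 1. Its means were 393.8 RPM ± 89.8 (SD, n = 2) in WT and 269.3 RPM ± 101.4 in KO. Nanog had 273.0 RPM in WT 1 and 424.3 in WT 2, against 275.2 in KO 1 and 255.8 in KO 2. WT 2 alone was high, and the other 3 libraries lay within each other's exact 95% binomial intervals. Sall4 had 34.1 RPM in WT 1 and 116.8 in WT 2, against 127.3 in KO 1 and 97.7 in KO 2. WT 1 alone was low, with an interval from 19.1 to 56.3 RPM.

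Utf1 had 395.9 RPM in WT 1 and 250.6 in WT 2, against 244.4 in KO 1 and 439.5 in KO 2, with the highest and the lowest value both in KO. Tdgf1 had 423.2 RPM in WT 1 and 555.3 in WT 2, against 370.3 in KO 1 and 372.1 in KO 2. Its KO libraries agreed within counting error and lay below both WT libraries. Fgf4 had 70.5, 91.1, 82.0 and 55.8 RPM in the same order, with overlapping genotypes. Pou5f1 and Tdgf1 were thus the 2 of 7 members with both KO libraries below both WT libraries, as were 15.5% of the 4815 genes tested.

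**Figure D5:**
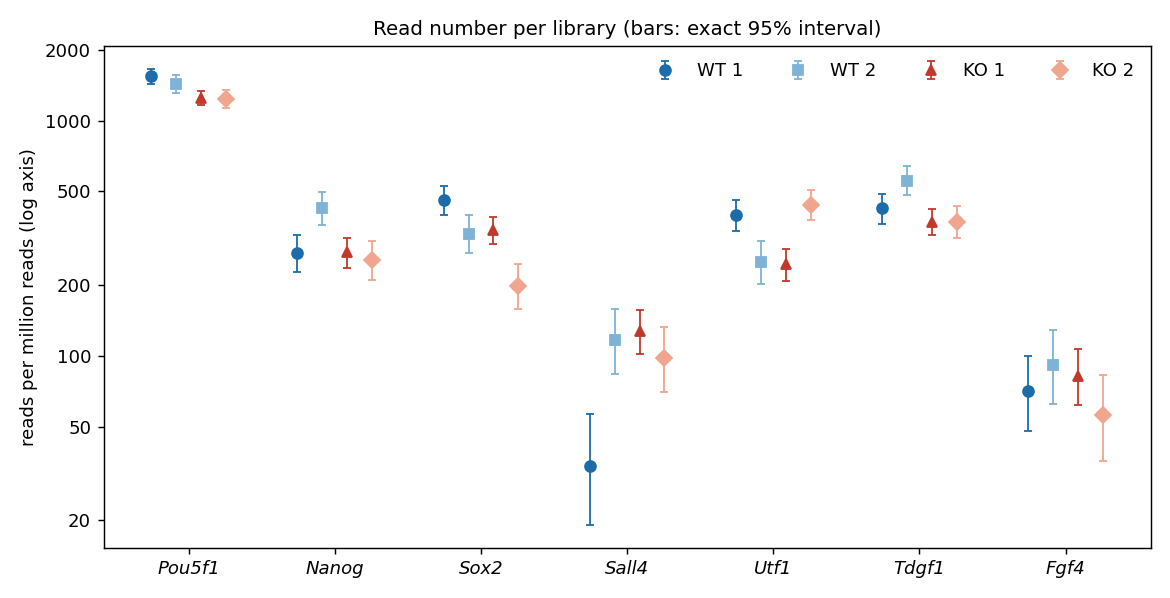
Reads per 1000000 reads (RPM, vertical axis, log scale) of each gene in the 4 libraries, with bars for the exact 95% binomial interval. The KO symbols of Pou5f1 and Tdgf1 sit below both WT symbols, and Sall4 in WT 1, at 34.1 RPM, sits far below its other libraries.

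In limma's voom test, after median-of-ratios scaling, the log2 change was -0.37 for Pou5f1 (95% interval -0.83 to 0.09), -0.47 for Nanog (-1.02 to 0.08) and -0.68 for Sox2 (-1.31 to -0.04). It was -0.50 for Tdgf1 (-1.01 to 0.02), -0.32 for Fgf4 (-1.04 to 0.39) and -0.08 for Utf1 (-0.74 to 0.58). Sall4 had 0.73 (-0.12 to 1.58). The adjusted p-values over 4815 genes ran from 0.458 for Sox2 to 0.955 for Utf1 (limma, Benjamini-Hochberg), so 0 of 7 members passed, as did 0% of all genes. One member, Sox2, had an unadjusted p under 0.05 (0.0379), as did 10.3% of all genes (498 genes). Limma with a mean-variance trend in place of voom also made 0 calls. The value was lower in KO for 6 of 7 members, against 50.6% of genes, and the median over the members was -0.37, against -0.01 over all genes. With scaling by total reads the median was 0.11 over all genes and -0.26 over the members, and Utf1 was at 0.02.

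Single libraries moved most of these values. Without WT 2 the log2 change was -0.98 in Sox2 and 1.49 in Sall4. This fit had WT 1 as the only WT library, with its spread assumed to be that of the other libraries. Without WT 1 the change of Sall4 was -0.08 and that of Utf1 was 0.32, and without KO 1 that of Utf1 was 0.36. Pou5f1, Nanog, Sox2, Tdgf1 and Fgf4 stayed negative with each library left out, but only Tdgf1 stayed within 1.5 times its value. Sox2 had -0.34 without WT 1, -1.09 without KO 1 and -0.28 without KO 2. Nanog had -0.24 without WT 2, Fgf4 had -0.63 without KO 1 and -0.06 without KO 2, and Pou5f1 had -0.23 without WT 1. With reads on transcripts of more than 1 symbol left out, which removes ENSMUST00000012540.4 for its 1 Rpl5 read, the change of Nanog was -0.16 (limma, adjusted p = 0.910). The same setting removes Pou5f1 altogether, for the 1 Cdk4 read on its transcript, so Pou5f1 was not checked in it.

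The pathways in which the members act were read from lists of their genes. Some genes, such as Klf4, Tfcp2l1 and Zfp42, are in more than 1 list, so the counts per list are not independent. Over all 4815 genes tested for read number, 50.6% were below 0. For read number, 0 of 6 tested genes of LIF signalling passed in either direction (limma), with a median log2 change of 0.73 and 5 of 6 above 0; Klf4, the LIF-responsive factor, had -1.23 (adjusted p = 0.223) and Tfcp2l1, its partner in naive cells, had 0.51 (adjusted p = 0.673). In FGF signalling, the pathway of Fgf4, 0 of 10 passed, with a median of 0.39 and 8 of 10 above 0; its transcription factor Etv5 had 0.42 and the kinase Map2k2 had -0.16 (adjusted p = 0.710 and 0.888, limma). In Nodal signalling, the pathway of Tdgf1, 0 of 3 passed, all 3 were below 0, and the median was -0.47; the ligand Nodal had -0.65 (adjusted p = 0.480) and the related ligand Gdf3 had -0.13 (adjusted p = 0.913, limma). Of 29 partners of Oct4, Sox2, Nanog and Sall4, 0 passed and 17 were below 0, with a median of -0.17. Among these, Zfp42 (Rex1), a marker of naive cells, had 973.8 and 626.5 RPM in WT against 439.1 and 395.3 RPM in KO, a log2 change of -1.02 (adjusted p = 0.160), and the corepressor Trim28 had -0.70 (adjusted p = 0.341, limma). The naive markers had 0 calls among 9 tested and a median of -0.35, with 8 of 9 below 0. Dnmt3b, the 1 primed marker tested, had 1.40 (adjusted p = 0.470, limma), on 6 and 4 reads in WT against 25 and 18 in KO. The primed markers summed to 45.5 and 37.0 RPM in WT and 42.4 and 44.2 RPM in KO. Dnmt3b made up 13.7 and 11.4 RPM of these in WT and 36.6 and 41.9 RPM in KO, so the other primed markers together were lower in KO. Fewer genes of these lists had the reads needed for tail length: 0 of 2, 0 of 4, 0 of 2 and 0 of 19 passed in the LIF, FGF, Nodal and partner lists, with medians of -0.09, -0.15, 0.05 and -0.00261.

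The deposited table also sorts genes into classes of Mov10 targets with m6A (a methylated adenosine in messenger RNA), Mov10 targets without m6A and non-targets; how they were defined is not given in the sources used here. Nanog, Sall4 and Fgf4 were listed as targets with m6A, a class that held 14.2% of the 1935 genes tested for tail length. Sox2 and Utf1 were listed as non-targets (30.03% of genes), and Pou5f1 and Tdgf1 were in no class (18.6%). No member was in the largest class, targets without m6A (37.2%). By the mean of the 4 library medians of each gene, the middle gene of the targets with m6A had 108.9 nt and that of the non-targets 104.2 nt. The middle gene had 105.6 nt in the targets without m6A and 106.4 nt among genes in no class.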

How the data were processed

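Per the labels' protocols, RNA from WT and Mov10 KO cells was selected on oligo(dT) beads and sequenced with the direct RNA kit on R9 flow cells, with barcode adapters to pool libraries. The submitters' processing notes name minimap2 2.20 without its role. The tail length tool, basecaller, build and annotation are not given in the sources used here. The deposited table holds 1 row per read, per the file header: transcript, symbol, library and tail length in nt, an estimate with no normalization. Reads with a length above 0 were used (3 left out). Reads on transcripts with more than 1 symbol made up 53.4%; symbols were used as deposited.

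Tail measures per gene were tested with limma 3.58.1 in R 4.3.3 over genes with at least 20 reads in every library. Read numbers were counted here and tested with limma's voom (0.5 reads added, median-of-ratios scaling, mean of at least 10 reads). Both tests were tested on simulated data. P-values were adjusted by Benjamini-Hochberg, with a threshold of 0.05. With 2 libraries against 2 an exact permutation test of a single value cannot give a p under 0.333. Python 3.11.15, numpy 2.4.6, pandas 2.3.3, scipy 1.17.1 and matplotlib 3.10.9 were used. Named genes are the members, Mov10, the 2 nearest genes by tail distribution and, per list, the 2 tested genes with the most reads. The members and lists were chosen with earlier results of these data known. Alternatives changed the minimum of reads, the summary, centring, weights, trend, scaling, filter, limits of short and long tails, blocks and libraries.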

Additional observations from a re-analysis of the deposited data

How the results depend on the processing

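No member whose tails were tested above passed for tail length, long tails, width or tail length per transcript under any alternative run. Sall4, whose tails were not tested above, was not followed in the alternatives for tails, so nothing is concluded for it there. For read number no member passed except Sox2 and Sall4 without WT 2. Over genes, the deviations of same-numbered libraries correlated by 0.0135 for tail length and 0.0155 for read number. A shift shared by all genes does not enter this correlation, so it cannot tell whether libraries were paired or run together. With a replicate block 66 genes were called for read number and 0 for the other measures, and no member's call changed. For read number, scaling by total reads called 7 genes and no filter called 96, and leaving out a library gave from 0 to 451 (451 without WT 2, 93 without WT 1). For median tail length a minimum of 10 reads called 1 gene. With a library left out, calls ranged from 0 to 2 for median tail length and for transcripts, from 0 to 9 for long tails and from 0 to 8 for the width.

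Some values changed sign without any call, most of them near 0. With libraries centred on their median, Sox2 had a change in median tail of -0.00257 (-0.00300 for its transcript) and Pou5f1 a change in width of 0.015; thinned to equal read numbers Sox2 had -0.11. With long tails set at 200 nt Nanog had 0.15 and Utf1, at -0.52 with a limit of 150 nt, had 0.38, while Sox2 kept its sign at 0.85. With the 90th over the 10th percentile Utf1 had a change in width of 0.13 and Fgf4 of -0.14. Utf1 had 0.020 in read number under scaling by total reads. The cause was not tested.

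With a library left out, the median tail change ranged from -0.063 to 0.083 in Pou5f1, -0.11 to 0.00320 in Nanog, -0.19 to 0.19 in Sox2 and -0.30 to 0.024 in Tdgf1. That of long tails ranged from -0.081 to 0.40 in Pou5f1, -0.37 to 0.23 in Nanog, -0.43 to 0.10 in Fgf4, 0.0087 to 0.84 in Sox2, -0.98 to -0.070 in Utf1 and -0.77 to -0.044 in Tdgf1. That of the width ranged from -0.072 to 0.068 in Pou5f1, -0.041 to 0.19 in Nanog, -0.32 to 0.14 in Utf1, -0.017 to 0.15 in Fgf4 and -0.00667 to 0.15 in Tdgf1. Per transcript it ranged from -0.061 to 0.084 (Pou5f1), -0.18 to 0.013 (Nanog ENSMUST00000112580.7), -0.022 to 0.19 (Nanog ENSMUST00000112581.7), -0.19 to 0.19 (Sox2) and -0.30 to 0.022 (Tdgf1). For read number it ranged from -0.076 to 1.49 in Sall4 and -0.51 to 0.36 in Utf1. The gap between the longest and the shortest member, 44.7 nt, ranged from 38.2 to 51.1 nt. Depth limits Sall4 and Fgf4 most, with 15 and 24 reads in their shallowest libraries.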
